A study of Rattus norvegicus with 6 samples.

Results

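The miR-106b, miR-93 and miR-25 hairpins are copied from 1 primary transcript, and they were followed here read by read in AR42J cells, an established rat cell line that the labels describe as exocrine pancreas. The members are the 3 precursors rno-mir-25, rno-mir-93 and rno-mir-106b, taken by name from the 383 precursors with at least 1 read, and they were selected on their levels, strand ratios, read ends and changes with taurocholate in these same libraries. Small RNA was sequenced from 3 libraries of cells exposed to sodium taurocholate at 200 µM over 30 min and from 3 libraries of untreated cells of the same line, with no genetic change named in either group. Taurocholate is a bile salt, used on acinar cells as a model of bile-induced pancreatic injury. The labels do not say that the replicates were separate cultures, so any test over them speaks for the spread of these 6 libraries alone, and that spread may be technical. Because of how the members were chosen, their values are given as a description, with no test.

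A microRNA hairpin is cut out of its primary transcript by Drosha, and its loop is removed by Dicer. This leaves a duplex of a 5p and a 3p strand, of which Argonaute usually keeps the one and the other is degraded. The first base of the kept strand sets its seed, the short stretch through which it pairs with target mRNAs, while the last bases can be trimmed or extended without moving the seed. In human and mouse cells this cluster lies within introns of Mcm7, a subunit of the replicative helicase, and is known for repressing brakes on the cell cycle and inducers of apoptosis such as Cdkn1a and Bcl2l11.

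In the RefSeq tables of assembly GRCr8 the 3 hairpins lay on the minus strand of chromosome 12, inside Mcm7 and on its strand. They spanned 494 nt, in the order miR-106b, miR-93, miR-25 along the transcript. Stretches of 122 nt and 119 nt separated neighbours. The hairpins of 2 members were in the sequence table and are shown with the reference 5p and 3p strands in capitals, because the places of reads given below are counted from their first base. The miR-25 hairpin is at chr12:22156641-22156724 and the miR-93 hairpin at chr12:22156844-22156930.
miR-25 hairpin: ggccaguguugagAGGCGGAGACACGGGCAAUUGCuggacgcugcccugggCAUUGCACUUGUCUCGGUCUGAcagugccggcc
miR-93 hairpin: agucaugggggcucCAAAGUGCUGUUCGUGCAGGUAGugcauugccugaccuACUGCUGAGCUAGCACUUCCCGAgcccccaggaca

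The mature strands are shown with the seed, bases 2 to 8, in capitals, because the seed sorts them into families. miR-93-5p and miR-106b-5p shared a seed, and miR-25-3p carried another one. miR-106b-3p, the strand of miR-106b with more reads in these cells, had a seed of its own within the cluster.
miR-25-3p: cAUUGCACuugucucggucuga
miR-25-5p: aGGCGGAGacacgggcaauugc
miR-93-5p: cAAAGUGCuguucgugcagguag
miR-93-3p: aCUGCUGAgcuagcacuucccga
miR-106b-5p: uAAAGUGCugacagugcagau
miR-106b-3p: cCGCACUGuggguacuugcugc
Relatives outside the cluster, from chromosome 15, are shown for the same seeds.
miR-17-5p: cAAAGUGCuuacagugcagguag
miR-20a-5p: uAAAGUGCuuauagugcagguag
miR-92a-3p: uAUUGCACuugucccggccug
Compared base by base from the 5′ end, miR-93-5p matched miR-17-5p at 19 of 23 bases and its cluster mate miR-106b-5p at 16 of 21. miR-25-3p matched miR-92a-3p at 18 of 21 bases. Even so, 1 read over all libraries aligned equally to a member and to another precursor, so the counts below belong to the members alone.

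The libraries held between 2791878 and 3987307 reads on precursors, each read 16 to 28 nt long and aligned with at most 1 mismatch. miR-148a, abundant in acinar tissue, took 284171 to 406601 CPM (reads scaled to 1000000 precursor reads of a library) with taurocholate and 352143 to 421894 CPM in untreated cells. The other acinar miRNAs on the marker list, miR-216a, miR-216b and miR-217, were at 0 to 1.10 CPM in every library, so these defining markers were near 0 in cells labelled exocrine pancreas. The summed CPM of 5 blood and immune precursors ranged over 1947 to 3651 with taurocholate and 2069 to 3868 untreated, and that of 3 stromal precursors over 11797 to 16683 with taurocholate and 14825 to 16895 untreated. Sums of the liver, muscle and endothelium lists overlapped too. The endocrine sum, of miR-7a and miR-375, did not: it was 41206 to 54718 CPM with taurocholate and 54968 to 59673 CPM untreated. Nearly all of it was miR-7a, and miR-375 overlapped. Of 341 strands or sets of strands fitted below, 7.62% were lower without overlap. Taurocholate replicate 1 stood apart in its read ends: 22.1% of its reads ended in a mismatched G, against 1.53% and 1.89% in the other taurocholate libraries and 5.32%, 1.20% and 1.44% in untreated replicates 1, 2 and 3. In bulk RNA of this kind, fewer cells of a type and less of an RNA per cell cannot be told apart.

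The hairpins gave very unequal amounts of mature strand. In each library miR-25-3p was the most abundant, followed by miR-93-5p, miR-106b-3p and miR-106b-5p, with miR-93-3p and miR-25-5p near the bottom. A read spans a whole mature strand, so levels are compared in CPM without scaling to length. miR-25-3p ranked 35 of 661 features by mean CPM, miR-93-5p ranked 71, miR-106b-3p ranked 97 and miR-106b-5p ranked 128, where a feature is a strand of a precursor or a set of strands that a read cannot separate.

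**Figure D1:**
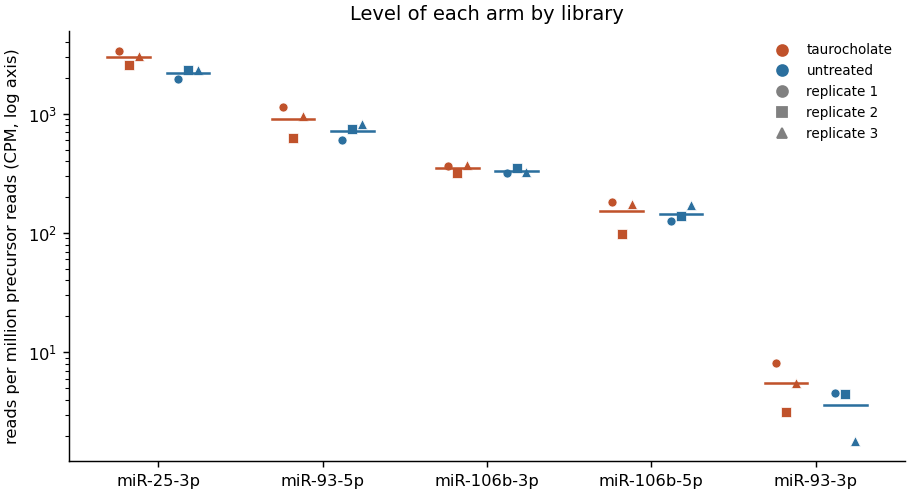
CPM of 5 member strands on a log axis, with 3 taurocholate libraries left of 3 untreated libraries for each strand, points as libraries and bars as group means. The order of the strands is the same in each library for the first 4, and only miR-25-3p has all 3 taurocholate points, 2541 CPM and up, above all 3 untreated points, 2319 CPM and down; miR-25-5p is left out, since it had at most 1 read per library.

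The order of the 3 main strands, the one with more reads from each hairpin, held in 6 of 6 libraries. miR-25-3p exceeded miR-93-5p by 1.69 ± 0.18 log2 CPM (SD of the difference, n = 6). It exceeded miR-106b-3p by 2.90 ± 0.21 log2 CPM. miR-93-5p exceeded miR-106b-3p by 1.21 ± 0.27 log2 CPM. Adapter ligation can favour some ends over others, and no value in these files measures that between strands.

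miR-25-3p carries the seed of the miR-92a family and is known to repress Bcl2l11. It had 11273, 9606 and 11096 reads in taurocholate replicates 1 to 3, against 6007, 9248 and 6437 reads in untreated replicates 1 to 3. These were 3372, 2541 and 3051 CPM with taurocholate and 1957, 2319 and 2306 CPM untreated, or 2988 ± 419 and 2194 ± 206 CPM (SD, n = 3 each). All 3 taurocholate libraries lay above all 3 untreated ones. Of 341 features that passed the filter on low counts, 6.16% were higher in this way. The spread within groups was narrower after scaling with TMM factors, which even out differences in library composition: 2909.6, 3049 and 2773 CPM with taurocholate and 2222, 2283 and 2191 CPM untreated, and 10.3% of features were higher without overlap on that scale. The fitted log2 fold change was 0.38 with an SE of 0.09.

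The neighbours of miR-25 overlapped between the groups. miR-93-5p, a miR-17 family member known to repress Cdkn1a in human cells, had 1129, 622 and 949.9 CPM with taurocholate and 601, 741 and 819 CPM untreated. Taurocholate replicates 1 and 3 were the highest of the 6 libraries, while taurocholate replicate 2 was below 2 of the untreated ones, so the groups overlapped. The fitted log2 fold change was 0.24 with an SE of 0.13, and it was 0.37 without taurocholate replicate 2, beside 0.39 for miR-25-3p in that fit, and 0.16 without taurocholate replicate 1.

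miR-106b-3p, the main strand of the remaining hairpin, had the narrowest range of CPM of the 4 abundant strands. It had 366, 322 and 375 CPM with taurocholate and 320, 349 and 325 CPM untreated, with a fitted log2 fold change of 0.04 and an SE of 0.14. miR-106b-5p, which shares the miR-93-5p seed, had 183, 97.3 and 176 CPM with taurocholate and 127, 139 and 170 CPM untreated. Taurocholate replicate 2 was the lowest library for this strand and replicate 1 the highest, so both extremes lay in the treated group. Its fitted log2 fold change was -0.03 with an SE of 0.17, and its sign was positive with library totals in place of TMM factors, at 0.07. The median log2 fold change of all 341 features was -0.04 with TMM factors and 0.02 with library totals.

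The passenger strands were close to the counting floor. miR-93-3p had 27, 12 and 20 reads with taurocholate and 14, 18 and 5 reads untreated, which overlapped, and its fitted log2 fold change of 0.48 had an SE of 0.46 and ranged from 0.15 to 0.78 with a library left out. miR-25-5p had 1, 0 and 0 reads with taurocholate and 0, 1 and 1 reads untreated, and did not pass the filter. Of the 6 member strands, 5 were fitted. Over all features edgeR's quasi-likelihood test called 0 of 341 at an adjusted p under 0.05 (0.0%), with 57 at an unadjusted p under 0.05 (16.7%), and DESeq2 called 9 of 341 (2.64%).

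Some other values followed the library order of miR-93-5p, and others did not. From the highest to the lowest CPM, the libraries stood in the same order for miR-93-5p and for miR-142-3p, a blood cell miRNA, which had 2189, 1323 and 2153 CPM with taurocholate and 948, 1462 and 1670.2 CPM untreated. The order was another one for miR-142-5p, the opposite strand of that hairpin, at 1242, 589 and 886 CPM with taurocholate and 919, 963 and 1019 CPM untreated. It was also another one for the blood marker miR-451, which was highest in untreated replicate 3. The remaining blood markers on the list were likewise highest there and were scarce. Over all libraries miR-223 had 0.251 to 4.66 CPM, miR-150 had 0.752 to 8.60 CPM and miR-144 had 0.529 to 18.3 CPM. miR-148a-3p, the miRNA with the most reads, was highest in untreated replicate 1 and taurocholate replicate 2, the libraries in which miR-93-5p was lowest. TMM factors were 1.16, 0.833 and 1.10 with taurocholate and 0.881, 1.02 and 1.05 untreated. The part of these differences in the level of miR-93-5p was not tested.

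Ratios between members within a library do not depend on its depth or scaling. Reads of miR-25-3p per read of miR-106b-3p were 9.21, 7.90 and 8.13 with taurocholate and 6.12, 6.65 and 7.10 untreated. All 3 taurocholate ratios exceeded all 3 untreated ones, while 5.29% of 340 features were higher without overlap when divided by miR-106b-3p. The ratio of miR-25-3p to miR-106b-5p did likewise, at 18.4, 26.1 and 17.3 with taurocholate and 15.4, 16.7 and 13.5 untreated. The ratio of miR-93-5p to miR-106b-5p, strands of 1 seed, was 6.16, 6.39 and 5.39 with taurocholate and 4.73, 5.32 and 4.80 untreated, again without overlap. For a ratio to miR-106b-5p, 7.06% of 340 features were higher in this way. In 3 further pairs the groups overlapped: miR-25-3p to miR-93-5p was 2.99, 4.09 and 3.21 with taurocholate and 3.26, 3.13 and 2.82 untreated, and the ratios of miR-93-5p and of miR-106b-5p to miR-106b-3p also overlapped.

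**Figure D2:**
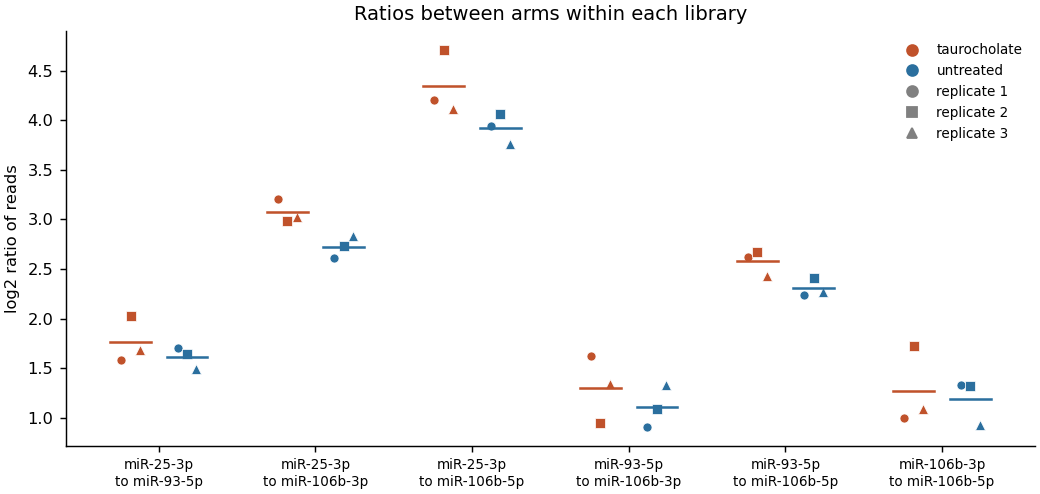
Log2 ratio of reads between each pair of the 4 abundant strands, with 3 taurocholate libraries left of 3 untreated ones in each pair, points as libraries and bars as group means. The groups are apart for the ratios of miR-25-3p to each strand of miR-106b and of miR-93-5p to miR-106b-5p, and overlap in the other pairs.

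Within the seed families, the cluster supplied a large part of the reads. Of reads with the seed AUUGCAC, which miR-25-3p shares with miR-92a-3p, miR-32-5p and scarce relatives, miR-25-3p made up 49.3%, 54.3% and 48.0% with taurocholate and 43.3%, 42.1% and 41.3% untreated. The higher shares with taurocholate include the level of miR-25-3p given above and are no separate result. miR-92a-3p, encoded in the miR-17-92 clusters, had 2358, 1335 and 2126 CPM with taurocholate and 1939, 2336 and 2262 CPM untreated, which overlapped. Of reads with the seed AAAGUGC, miR-93-5p and miR-106b-5p together made up 41.1%, 43.4% and 39.9% with taurocholate and 45.6%, 41.0% and 41.6% untreated, and the groups overlapped. The rest of that family was mostly miR-20a-5p and miR-17-5p of the miR-17-92 cluster.

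Relatives outside the cluster were counted as well. Of 23 features that share a member seed or come from the paralogous clusters, 12 passed the filter; 5 had a positive fitted change and 7 a negative one, with a median log2 fold change of -0.26 beside -0.04 for all features. None of the 12 was higher with taurocholate in every library, 1 was lower in every library, a pattern of 7.62% of all 341 features, and edgeR called 0. The 6 that share a seed with a member and passed the filter split into 3 positive and 3 negative.

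The libraries ordered the members differently. Over the 6 libraries, the log2 CPM of miR-93-5p was most like that of miR-17-5p among 265 other features of at least 10 CPM (Pearson r = 0.997), then miR-322-5p (0.990) and miR-23a-3p (0.987). Its own cluster mates came later, with miR-106b-5p at place 52 (r = 0.871) and miR-25-3p at place 59 (r = 0.854). miR-25-3p was most like miR-196b-5p, miR-872-5p and miR-99b-5p, with r of 0.983, 0.982 and 0.978, and its r with miR-106b-5p was 0.512. miR-106b-3p was most like miR-125a-5p (r = 0.926), and miR-106b-5p was most like let-7i-3p (r = 0.986). The 2 strands of miR-106b, cut from 1 hairpin, had r = 0.680. These values describe 6 libraries that differ in composition as above, with the groups pooled.

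Strand choice separated the hairpins clearly. The minor strand is the one with fewer reads over all libraries, and its share is given as a percentage of the reads of both strands. For miR-106b, whose minor strand was 5p, it was 33.4%, 23.2% and 31.97% with taurocholate and 28.4%, 28.5% and 34.4% untreated, with 95% Wilson intervals of at most ± 2.50 points. For miR-93, minor strand 3p, it was 0.710%, 0.508% and 0.576% with taurocholate and 0.753%, 0.606% and 0.218% untreated. For miR-25, minor strand 5p, it was 0.00887% in taurocholate replicate 1, and 0.0108% and 0.0155% in untreated replicates 2 and 3. The other 3 libraries had no read of it, which allows a share of up to 0.0499% in the shallowest of them. Among 120 precursors with both strands measured, where the median share was 1.58%, miR-106b ranked 11, miR-93 ranked 75 and miR-25 ranked 120, the most one-sided of those ranked. Precursors with no read of the other strand were not ranked. Intervals and floors cover counting error only.

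The share of miR-106b exceeded that of miR-93 by 29.4 ± 4.19 points and that of miR-25 by 29.99 ± 4.13 points (SD, n = 6 libraries). miR-93 exceeded miR-25 by 0.556 ± 0.195 points. All 3 differences were positive in 6 of 6 libraries. The taurocholate and untreated libraries overlapped for each hairpin, whereas 21.5% of 107 precursors with reads of both strands in every library had a share without overlap, in either direction.

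**Figure D3:**
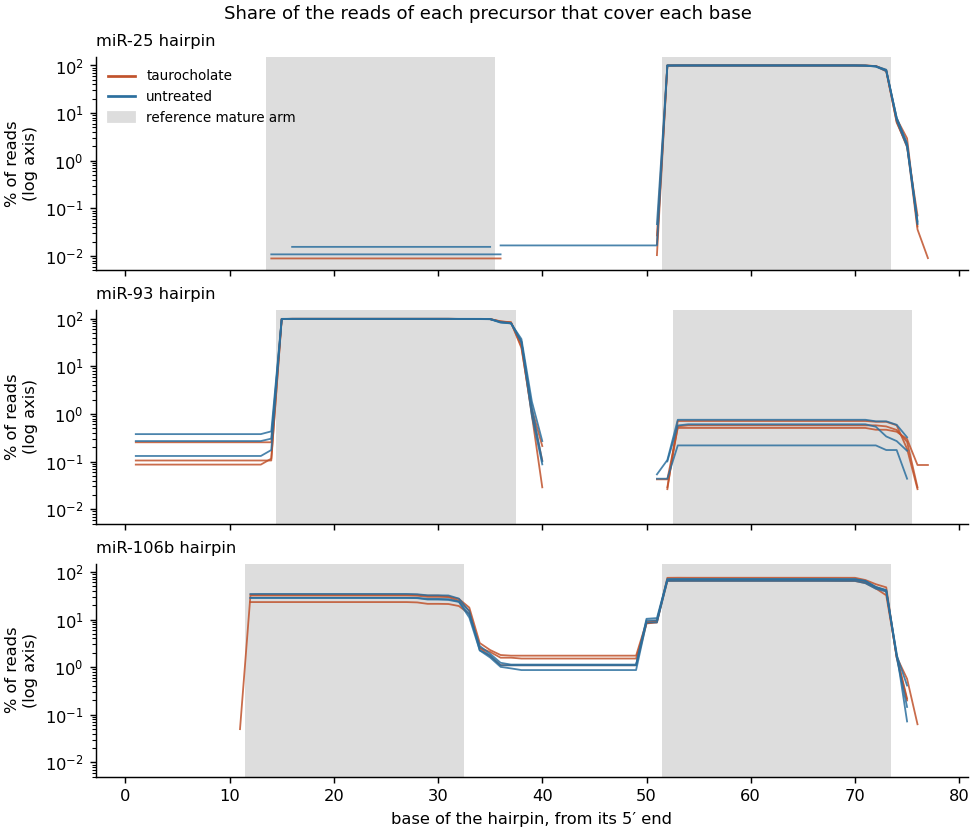
Percent of the reads of each precursor that cover each base of its hairpin, on a log axis, against the base counted from the 5′ end; lines are libraries, taurocholate in orange and untreated in blue, and grey bands are the reference strands. miR-25 is covered almost wholly on 3p and miR-93 on 5p, while miR-106b is covered on both strands with a bridge of loop reads near 1% between them.

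Reads left between and beside the strands were counted next. Of the miR-106b reads, 122, or 1.20%, lay wholly in the loop, with 32, 20 and 21 in taurocholate replicates and 15, 22 and 12 in untreated replicates, which overlapped. Of these, 85 spanned bases 34 to 51 and 35 spanned bases 34 to 50. The commonest form, 74 reads, is shown because it fits between the strands: it starts directly after base 33, the commonest last base of miR-106b-5p reads, and ends directly before base 52, the commonest first base of miR-106b-3p reads.
miR-106b loop read: gtggtcctctctgtgcta
miR-25 had 1 loop read, but its gap of 16 nt equals the shortest deposited read, against a gap of 19 nt in miR-106b. Only a fragment of the whole gap could thus be counted for miR-25, and the loop counts cannot be compared between hairpins. The gap of 15 nt in miR-93 is shorter than the shortest deposited read, so a loop of miR-93 could not be detected. Of 71 precursors with a gap of 16 nt or more and at least 600 reads, 14 had 10 or more loop reads and 7 had a larger loop share than miR-106b. Only reads that matched 1 precursor entered these shares, so mature reads shared between copies of a miRNA were left out. This raises the share of such copies, for example miR-9a-1 at 62.9% of 701 reads, so the count of 7 does not rank miR-106b. The library protocol phosphorylated 5′ hydroxyl ends and removed 3′ cyclic phosphates before adapters were joined, so fragments of several end types could enter. miR-93 had 31 reads wholly before its 5p strand, of which 30 ended at base 14, directly before the first base of miR-93-5p. miR-25 and miR-106b had none there, but the room for such a read was unequal. The 5p strand starts at base 12 in miR-106b, 14 in miR-25 and 15 in miR-93, and deposited precursors carry 5 nt of flank. With reads of at least 16 nt, miR-106b had the least room, so these counts cannot be compared between hairpins.

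The first base, which fixes the seed, was nearly uniform in 3 of the 4 abundant strands. Between 99.6% and 99.7% of miR-25-3p reads began at base 52 of the hairpin, 98.7% to 99.3% of miR-93-5p reads at base 15, and 99.6% to 100% of miR-106b-5p reads at base 12, in each case the reference start. miR-106b-3p was less uniform, with 85.2%, 87.7% and 86.2% at base 52 with taurocholate and 83.8%, 85.6% and 86.0% untreated. Of 129 features with at least 100 reads in every library, 24 had a lower share at their commonest first base, and the median was 98.8%. miR-25-3p exceeded miR-106b-3p in this share by 13.9 ± 1.31 points, miR-93-5p exceeded it by 13.2 ± 1.22 points, and miR-25-3p exceeded miR-93-5p by 0.646 ± 0.224 points (SD, n = 6). Each difference was positive in 6 of 6 libraries. Loop reads lie nearer to 3p and are counted within it here.

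Most of the miR-106b-3p reads that began elsewhere began 2 nt earlier. This form, 785 reads over all libraries, is set below the reference form, with the added bases in capitals; it moves the seed by 2 nt.
miR-106b-3p from base 52: ccgcactgtgggtacttgctgc
miR-106b-3p from base 50: TAccgcactgtgggtacttgct
The form from base 50 made up 10.8%, 8.80% and 10.7% of miR-106b-3p reads with taurocholate and 12.9%, 11.9% and 11.9% untreated, picked out after these values were seen. Its 3′ end was shifted as well: 64.3% of its reads ended at base 71 and 11.5% at base 73, whereas of 6078 reads from base 52, 14.9% ended at base 71 and 61.2% at base 73. Among reads from base 50, those ending at base 71 made up 53.8%, 57.0% and 58.2% with taurocholate and 78.0%, 70.9% and 66.7% untreated. The groups were apart in that share, as were 46.5% of 129 features at their commonest last base. The mean read length lay between 21.2 and 21.4 nt from base 52 and between 21.9 and 22.2 nt from base 50. At the commonest first base, with all reads, none of the 4 strands differed between the groups without overlap, against 10.1% of 129 features. With error-free reads miR-106b-3p did, at 86.8%, 87.4% and 83.9% with taurocholate and 78.6%, 83.4% and 83.1% untreated. It did so with reads of 20 to 25 nt as well, and neither read set was compared with a background.

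The last base varied far more. The commonest reads of each strand are shown because they differ at the 3′ end alone, with a mismatched last base in capitals.
miR-25-3p, 27892 reads: cattgcacttgtctcggtctga
miR-25-3p, 6714 reads: cattgcacttgtctcggtctg
miR-25-3p, 3582 reads: cattgcacttgtctcggtctgT
miR-93-5p, 6406 reads: caaagtgctgttcgtgcaggtag
miR-93-5p, 2060 reads: caaagtgctgttcgtgcaggtagt
miR-93-5p, 1686 reads: caaagtgctgttcgtgcaggtagA
miR-106b-3p, 1741 reads: ccgcactgtgggtacttgctgc
miR-106b-3p, 1363 reads: ccgcactgtgggtacttgctgT
miR-106b-5p, 928 reads: taaagtgctgacagtgcagata
miR-106b-5p, 709 reads: taaagtgctgacagtgcagat
The commonest miR-106b-5p read was thus 1 nt longer than the RefSeq mature form.

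miR-25-3p had the most uniform 3′ end of the 3 main strands. Its share at base 73 was 68.5%, 70.5% and 73.6% with taurocholate and 68.7%, 73.7% and 72.3% untreated, which overlapped. This share exceeded that of miR-93-5p at its commonest last base by 20.01 ± 6.64 points and that of miR-106b-3p by 16.7 ± 4.18 points (SD, n = 6), each in 6 of 6 libraries. The difference of miR-93-5p minus miR-106b-3p was -3.29 ± 9.92 points, positive in 2 of 6 libraries, so it was smaller than its spread. With error-free reads alone that difference was 11.6 points, and the difference of miR-25-3p minus miR-93-5p was 17.9 points.

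Between the groups, both 5p strands stood apart at their commonest last base. miR-93-5p ended at base 37, its reference end, in 59.9%, 50.5% and 57.0% of reads with taurocholate and 42.6%, 49.9% and 47.2% untreated. All 3 taurocholate libraries were higher, replicate 2 by a small margin. The next longer form, ending at base 38, made up 23.3%, 31.6% and 25.6% with taurocholate and 35.8%, 30.3% and 31.7% untreated, which overlapped, and the shorter form ending at base 35 made up 9.62%, 11.7% and 11.2% with taurocholate and 14.9%, 13.5% and 14.3% untreated, which did not. miR-106b-5p ended at base 33, past its reference end, in 48.9%, 52.2% and 43.5% of reads with taurocholate and 34.1%, 38.6% and 39.1% untreated, and at base 32 in 27.7%, 26.1% and 29.5% with taurocholate and 43.6%, 39.1% and 36.8% untreated. Of these forms of miR-106b-5p, the longer one was the more frequent in all 3 taurocholate libraries and also in untreated replicate 3. For miR-93-5p the groups differed toward the reference length. With error-free reads alone both strands stood apart at these ends too, as did 42.6% of features. miR-106b-3p overlapped, at 45.8%, 59.5% and 54.9% with taurocholate and 55.3%, 55.4% and 56.1% untreated at base 73. At rarer ends the 3p strands stood apart as well: miR-106b-3p ended at base 72 in 19.1%, 10.2% and 13.7% with taurocholate and 8.35%, 9.86% and 8.50% untreated, and at base 71 in 20.02%, 16.04% and 18.6% with taurocholate and 23.6%, 23.1% and 20.8% untreated. miR-25-3p was lower with taurocholate at base 71, at 2.24%, 2.18% and 2.51% against 4.88%, 2.93% and 3.76% untreated, and at base 74, at 4.78%, 4.72% and 4.26% against 5.89%, 5.61% and 5.06% untreated. These rarer ends were not set against a background. In all, 2 of the 4 strands stood apart at their commonest last base, where 46.5% of 129 features did so in either direction and 16.3% were higher with taurocholate. A count of 2 of 4 is near that background, and mean read length overlapped for all 4 strands while 31.8% of features stood apart in it.

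**Figure D4:**
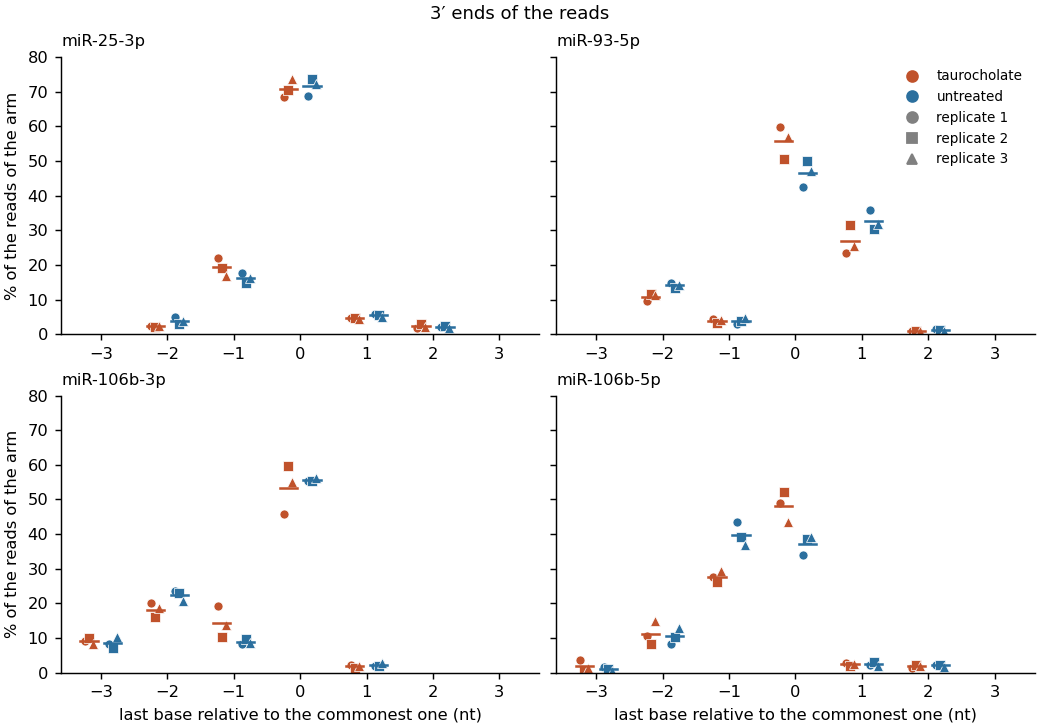
Percent of the reads of each strand by last base, relative to the commonest last base of that strand, with 3 taurocholate libraries left of 3 untreated ones at each place, points as libraries and bars as group means. At 0 nt the groups are apart for miR-93-5p and miR-106b-5p and overlap for miR-25-3p and miR-106b-3p.

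The shares of mismatched last bases differed between strands. Whether such a base was added in the cell or arose in library preparation or sequencing cannot be told apart from these reads. A last base that matches the hairpin is not a mismatch, so the shares of each base depend on the sequence of the hairpin. After the reference end of miR-93-5p the hairpin continues with u, so a T there, templated or added, counts as error-free. Shares of A and T are thus not alike in meaning between strands. miR-93-5p ended in a mismatched A in 16.6%, 24.8% and 24.3% of reads with taurocholate and 18.1%, 20.4% and 18.6% untreated, which overlapped, and 5 of 129 features had a higher mean share. miR-106b-3p ended in a mismatched T in 14.8%, 25.8% and 22.7% of reads with taurocholate and 30.0%, 24.4% and 26.7% untreated, which also overlapped. Its mean share was close to the median of 20.9% over 57 3p features, beside 4.62% over 72 5p features.

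With taurocholate the share of a mismatched T was lower without overlap in miR-25-3p, at 5.62%, 8.67% and 8.47% against 14.3%, 11.5% and 11.4% in untreated libraries. miR-93-5p was lower in the same way, at 1.01%, 1.02% and 0.897% with taurocholate and 1.57%, 1.93% and 1.79% untreated. Over 129 features 27.1% stood apart in T, all of them lower. A mismatched C was lower without overlap in all 4 strands, for example in miR-93-5p at 2.12%, 3.79% and 3.59% with taurocholate and 6.34%, 5.28% and 5.95% untreated. This was shared by 60.5% of features, all lower, and by all precursor reads pooled, at 5.08%, 8.03% and 7.79% with taurocholate and 9.30%, 11.2% and 10.2% untreated. The mismatched G of taurocholate replicate 1 was seen in the members too, at 23.5% of miR-25-3p, 10.0% of miR-93-5p, 12.9% of miR-106b-3p and 21.9% of miR-106b-5p reads. Its part in the other shares of that library was not tested. Setting that library aside cannot decide this, because groups that do not overlap stay apart whichever library is removed.

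**Figure D5:**
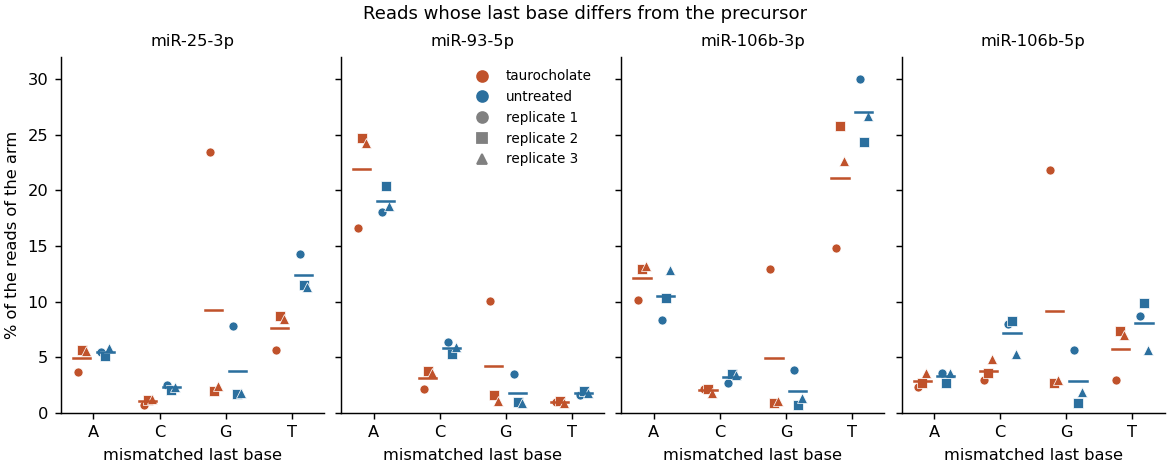
Percent of the reads of 4 strands whose last base differs from the precursor, by that base, with 3 taurocholate libraries left of 3 untreated ones, points as libraries and bars as group means. C is lower in all taurocholate libraries for each strand, and T is lower in miR-25-3p and miR-93-5p. For G, taurocholate replicate 1 is the highest point in each strand, and untreated replicate 1 is the next.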

How the data were processed

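Small RNA libraries of AR42J cells, 3 with taurocholate and 3 untreated, were grouped by the labels. Per the file headers, the deposited values are counts: the number of reads of each distinct sequence, on each line with an alignment to a precursor and its mismatches. The submitters' processing notes name FastQC, cutadapt and Novoalign 2.07.11; the build and the other tools' versions were not given in the sources used here. Alignment places and read lengths were used as deposited. Files of tRNA alignments were not used here.

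Each read sequence was counted once per library. Strands were set by the middle of the precursor, with the length of 360 precursors taken from the RefSeq gene table and that of 23 from where their reads lay; deposited precursors carry 5 nt of flank, which was subtracted from positions. This gave 661 features. The fit used edgeR 4.0.16 (R 4.3.3) with TMM, filterByExpr, the quasi-likelihood test and Benjamini-Hochberg adjustment at 0.05 over 341 features. DESeq2 1.42.0 was the alternative. Strands were compared within libraries as 4 families of 3 pairs; planned sign-flip tests of these pairs are not reported, because the members were selected on the same measures. The rest used Python 3.11.15, pandas 2.3.3 and scipy 1.17.1; figures used matplotlib 3.10.9. Scripts were tested on simulated data.

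Deviations from the group means correlated over features at 0.288, 0.634 and 0.195 between samples with the same replicate number, 1 to 3. Taurocholate replicate 3 correlated more with untreated replicate 1 (0.422), so the values do not show that same-numbered samples belong together. The labels do not say what the numbers share. The members and lists were chosen with earlier results of these data known. Named were all member strands, the 3 commonest reads of each main strand (2 of them shown for some), miRNAs with a member seed or of the paralogous clusters, and the 3 most alike features per strand by Pearson r of log2(CPM + 1). The detail given for miR-106b-5p, and the reads from base 50, in loops and before the 5p strand, were added after their values were seen.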

Additional observations from a re-analysis of the deposited data

How the results depend on the processing

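With a replicate block edgeR called 0 features, as without it; the log2 fold change of miR-25-3p was 0.38 with the block, and the block changed no other call. That of miR-25-3p was 0.44 with DESeq2, 0.45 with library totals, 0.46 without a filter and 0.38 to 0.46 with a library left out. With a library left out that of miR-93-5p was 0.16 to 0.37 and that of miR-93-3p 0.15 to 0.78. DESeq2 called 9 features. With a library left out edgeR called 0 in each case. With error-free reads the group difference, taurocholate minus untreated, was 13.9 points at the last base of miR-93-5p (9.28 with all reads). At the first base of miR-106b-3p it was 4.37 points (1.26 with all reads), and the groups were then apart. The cause was not tested. Between strands with error-free reads, the last-base share of miR-25-3p minus miR-93-5p was 17.9 points, and that of miR-93-5p minus miR-106b-3p reversed to 11.6 points. With a library left out, levels differed by 1.62 to 1.73 log2 CPM for miR-25-3p minus miR-93-5p, 2.84 to 2.95 for miR-25-3p minus miR-106b-3p and 1.12 to 1.27 for miR-93-5p minus miR-106b-3p. Minor-strand shares differed by 28.5 to 30.8 points for miR-106b minus miR-93, 29.1 to 31.3 for miR-106b minus miR-25 and 0.517 to 0.627 for miR-93 minus miR-25. First-base shares differed by 0.575 to 0.692, 13.5 to 14.3 and 12.9 to 13.6 points for miR-25-3p minus miR-93-5p, miR-25-3p minus miR-106b-3p and miR-93-5p minus miR-106b-3p. Last-base shares differed by 18.8 to 22.3 and 15.5 to 17.9 points for miR-25-3p minus miR-93-5p and minus miR-106b-3p, and by -6.79 to -1.41 for miR-93-5p minus miR-106b-3p. The change of miR-106b-5p took the other sign in 7 of 12 alternatives and that of miR-106b-3p in 2 of 12. miR-25-5p and miR-93-3p rest on few reads.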
